A study of Mus musculus with 8 samples.

Results

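Markers of activated cardiac fibroblasts, most of them coding for proteins of the extracellular matrix, were examined in the left ventricle of mice with hypertension induced by angiotensin II (ANG II). The markers were Postn, Cthrc1, Cilp, Meox1, Fap, Tnc, Fn1, Tgfbi, Sparc and Spp1. They are 10 of the 55679 genes in the expression table, and they were chosen by name from measured values of this same comparison, so that their differences between ANG II and control are given as a description, with no p-value. RNA-seq was performed on left ventricles of wild-type (WT) male C57BL/6J mice, 4 infused with saline for 7 days (control) and 4 infused with ANG II at 1500 ng/kg/min for 7 days. Both groups carried a subcutaneous osmotic pump, and both had the heart flushed with saline before the ventricle was removed. ANG II is a peptide hormone that constricts vessels and raises blood pressure, and the age of the mice was not given in the sources used here. The 8 libraries held 14455654 to 16564828 fragments, as recovered from the steps of the deposited values.

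Fibroblasts of the healthy heart maintain a thin collagen network between muscle cells. When the ventricular wall is overloaded, part of them become activated, secrete fibrillar collagens and matricellular proteins (secreted proteins that sit in the matrix and signal to cells more than they bear load), and lay down fibrosis. Transforming growth factor beta (TGF-beta), stored in the matrix in latent form, is a well-known driver of this state, and integrins on the surface of cells read the matrix, many of them through the Arg-Gly-Asp tripeptide.

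The integrin-binding tripeptide was therefore looked for in the coding sequences of the 10 genes (longest coding sequence per gene, GENCODE M21, GRCm38). In-frame Arg-Gly-Asp codons were present in 4 of the 10 genes, Fn1, Tgfbi, Cilp and Spp1, and absent from Postn, Cthrc1, Meox1, Fap, Tnc and Sparc. Across the 14311 tested genes with a coding sequence, 8.71% held at least 1 such site. Each site is shown with the bases around it, 5′ to 3′ on the coding strand, with the 9 bases of the Arg, Gly and Asp codons in capitals. The letters are those of the spliced coding sequence, and the stretches of Tgfbi and Cilp run across an exon junction.
Fn1, codon 1614: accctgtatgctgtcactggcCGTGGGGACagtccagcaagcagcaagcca
Fn1, codon 2181: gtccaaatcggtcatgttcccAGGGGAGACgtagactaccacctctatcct
Tgfbi, codon 642: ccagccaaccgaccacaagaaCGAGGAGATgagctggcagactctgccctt
Cilp, codon 145: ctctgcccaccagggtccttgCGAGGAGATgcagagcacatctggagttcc
Spp1, codon 145: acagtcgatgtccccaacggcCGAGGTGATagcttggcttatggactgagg
The sites lie in coding exons at chr1:71606746-71606754 (minus strand, exon 30 of 46) and chr1:71597443-71597451 (minus strand, exon 40 of 46) for Fn1, chr13:56637155-56637163 (plus strand, exon 15 of 17) for Tgfbi, chr9:65272811-65272819 (plus strand, exon 6 of 10) for Cilp and chr5:104439481-104439489 (plus strand, exon 7 of 8) for Spp1. The third base of the codons varies between the sites, which read CGTGGGGAC and AGGGGAGAC in Fn1, CGAGGAGAT in both Tgfbi and Cilp, and CGAGGTGAT in Spp1. A match is a stretch of letters, and binding by an integrin was not measured.

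Promoter sequences of 6 of the 10 genes, Postn, Tnc, Spp1, Cilp, Sparc and Tgfbi, were matched in RefSeq (GRCm38.p6). The 250 bases before a transcription start were searched for the letters TATAAA (sense strand), and on both strands for TGANTCA (AP-1), GGAATG (TEAD), GTCTG (SMAD), TGTGGT (RUNX, ACCACA on the other strand) and the CArG box of serum response factor. For Postn, Tnc and Spp1, the window of 1 start is shown 5′ to 3′ on the strand of the gene, each with no base in an annotated exon and each match in capitals.
Postn, chr3:54360857-54361106, plus strand: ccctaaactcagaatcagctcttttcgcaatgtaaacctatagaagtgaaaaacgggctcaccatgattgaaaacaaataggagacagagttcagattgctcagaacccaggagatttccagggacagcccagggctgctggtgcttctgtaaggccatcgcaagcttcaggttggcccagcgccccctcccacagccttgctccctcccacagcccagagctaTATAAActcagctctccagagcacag
Tnc, chr4:64047016-64047265, minus strand: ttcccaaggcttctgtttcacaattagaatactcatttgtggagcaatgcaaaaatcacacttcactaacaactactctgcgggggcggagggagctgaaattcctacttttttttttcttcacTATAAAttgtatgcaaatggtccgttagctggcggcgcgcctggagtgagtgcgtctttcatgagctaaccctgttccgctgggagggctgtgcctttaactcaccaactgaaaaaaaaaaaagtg
Spp1, chr5:104434861-104435110, plus strand: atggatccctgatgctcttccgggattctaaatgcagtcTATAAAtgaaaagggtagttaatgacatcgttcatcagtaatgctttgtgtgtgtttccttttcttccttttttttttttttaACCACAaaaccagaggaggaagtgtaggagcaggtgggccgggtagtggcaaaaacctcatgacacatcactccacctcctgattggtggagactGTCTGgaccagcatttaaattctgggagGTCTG
TATAAA began 26 bases before the start in Postn, where a TATA box is usually placed, but 126 bases before it in Tnc and 211 bases before it in Spp1. Only this spelling was searched for. The letters tatataag, near the starts of Cilp and of a second Tnc window, were thus not counted. A second Postn window, chr3:54359017-54359266, also without annotated exon bases, held no TATAAA but CAGAC, the SMAD letters on the other strand, at 191 bases before its start. The Spp1 window also held GTCTG at 33 and 5 bases before the start and ACCACA at 128 bases before it. The window of Cilp at chr9:65264930-65265179 held, of these letters, ACCACA alone, at 205 bases before the start. The other windows overlapped annotated exons and are not shown. GTCTG was found in those of Sparc (35 bases before the start), Tgfbi (239 and 85 bases) and Tnc (70 bases), and CAGAC in that of Spp1 (41 bases). This Tnc window overlaps the Tnc window shown, and its TATAAA, 205 bases before its start, is the same site. The AP-1 and TEAD letters and the CArG box were in none of the 9 windows of these 6 genes. TATAAA was found in 7.59%, TGANTCA in 6.75%, GGAATG in 12.6%, GTCTG in 42.2%, TGTGGT in 14% and the CArG box in 1.47% of 32851 promoter windows of the same length.

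All 10 genes were higher in ANG II than in control, and in each of them every ANG II library lay above every control library. Levels are given in fragments per kilobase of transcript, scaled to the mapped fragments of the library (FPKM), a level per length, and differences as log2 fold changes of FPKM + 1 with their standard error (SE) from limma. A gene was called when the Benjamini-Hochberg adjusted p was under 0.05 and the absolute log2 fold change above 0.5. By the same thresholds all 10 genes counted as called higher, where 14.0% of the 19364 genes tested were called higher and 1.41% lower, and every ANG II library lay above every control library in 28.7% of the genes tested. Since the genes were selected on this contrast, this count is no test of them and nothing is read from these shares. The median log2 fold change was 3.44 over the 10 genes and 0.15 over all genes tested, and subtracting the latter left between 0.68 (Fap) and 4.68 (Cthrc1). In bulk tissue, more cells of a type and more RNA per cell cannot be told apart.

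**Figure D1:**
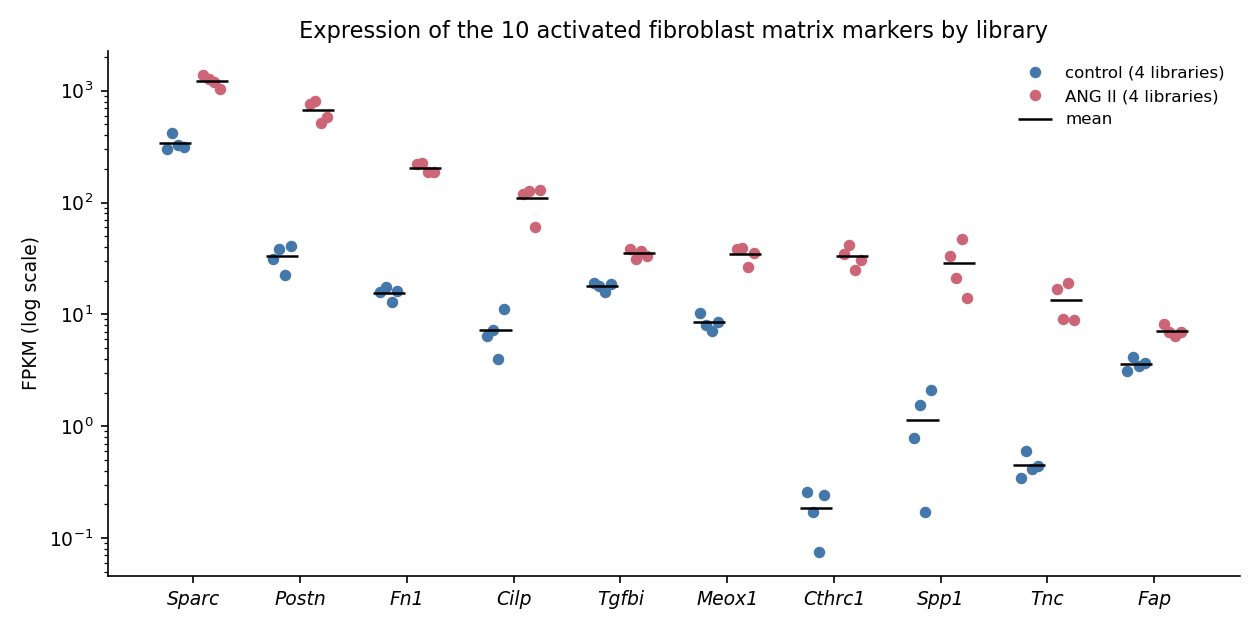
FPKM (log scale) of the 10 markers, ordered by their ANG II mean, in the 4 control (blue) and 4 ANG II (red) libraries, with the mean of each group as a black line. The 2 groups do not overlap at any gene, and the distance between them ranges from 1.96-fold (Tgfbi) to a gene nearly without fragments in control (Cthrc1).

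Among the matricellular proteins, Postn (ENSMUSG00000027750, chr3:54361109-54391037, plus strand) codes for periostin, which promotes collagen cross-linking and is the usual marker of the activated cardiac fibroblast. It was measured at 31.3, 38.6, 22.4 and 40.6 FPKM in the control libraries 1 to 4, and at 761, 808, 513 and 584 FPKM in the ANG II libraries 1 to 4. ANG II 1 and 2 were the higher pair and ANG II 3 the lowest, and even ANG II 3 lay 12.6-fold above the highest control library. The mean was 20.1-fold higher in ANG II (667 ± 141 against 33.2 ± 8.28 FPKM, SD, n = 4 each; log2 fold change 4.30, SE 0.20). Postn moved from place 2501 to place 93 among all tested genes ordered by mean FPKM.

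Tnc (ENSMUSG00000028364, chr4:63959785-64047015, minus strand) codes for tenascin C, a large glycoprotein that is scarce in the adult heart and appears at sites of injury. The control libraries 1 to 4 held 0.346, 0.606, 0.413 and 0.436 FPKM, from 30 to 53 fragments, and the ANG II libraries 1 to 4 held 16.8, 9.08, 19.2 and 8.95 FPKM. The ANG II libraries fell into a higher pair, 1 and 3, and a lower pair, 2 and 4, and the lowest of them was still 14.8-fold above the highest control library. The means were 13.5 ± 5.27 and 0.45 ± 0.11 FPKM (SD, n = 4 each), a 30-fold difference (log2 fold change 3.25, SE 0.23).

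Spp1 (ENSMUSG00000029304, chr5:104435118-104441050, plus strand) codes for osteopontin, a secreted phosphoprotein that binds integrins and CD44 and is also made by macrophages. It was at 0.781, 1.55, 0.17 and 2.09 FPKM in the control libraries 1 to 4, which rest on 12, 24, 3 and 34 fragments, and at 33.6, 21.1, 47.2 and 14.1 FPKM in the ANG II libraries 1 to 4. It was the most variable of the 10 genes in both groups, with a coefficient of variation of 73.6% in control and 50.2% in ANG II, and ANG II 3 was 3.34-fold above ANG II 4. The mean was 25.3-fold higher in ANG II (29 ± 14.6 against 1.15 ± 0.84 FPKM, SD, n = 4 each; log2 fold change 3.76, SE 0.38). Of the bases of its exons, 18.8% are shared with an overlapping gene on the same strand, Gm42793, which was listed at 0 in 7 libraries and at 0.0528 FPKM in ANG II 3. How fragments in the shared part were assigned is not given in the sources used here.

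Sparc (ENSMUSG00000018593, chr11:55394500-55423183, minus strand) codes for osteonectin, a collagen-binding glycoprotein that takes part in the processing of procollagen. It was the highest of the 10 genes in every library, at 304, 416, 325 and 316 FPKM in control 1 to 4 and at 1394, 1282, 1188 and 1041 FPKM in ANG II 1 to 4. Control 2 was the highest control library, and ANG II 4, the lowest of its group, lay 2.5-fold above it. The mean was 3.6-fold higher in ANG II (1226 ± 150 against 340 ± 51.3 FPKM, SD, n = 4 each; log2 fold change 1.85, SE 0.11).

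Among the adhesive glycoproteins, Fn1 (ENSMUSG00000026193, chr1:71585520-71653200, minus strand) codes for fibronectin, the scaffold on which other matrix proteins assemble. It was measured at 15.9, 17.6, 12.9 and 16.2 FPKM in control 1 to 4 and at 222, 225, 186 and 187 FPKM in ANG II 1 to 4. The ANG II libraries formed a higher pair, 1 and 2, and a lower pair, 3 and 4, that differed by less than the distance of either to control. The mean was 13.1-fold higher in ANG II (205 ± 21.5 against 15.6 ± 1.98 FPKM, SD, n = 4 each), and the SE of its log2 fold change (3.63, SE 0.1) was the second lowest of the 10 genes.

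Tgfbi (ENSMUSG00000035493, chr13:56609523-56639562, plus strand) codes for a TGF-beta-induced adhesion protein of the same family as periostin. It was at 18.9, 17.9, 15.8 and 18.9 FPKM in control 1 to 4 and at 38.6, 31.1, 37.1 and 33.5 FPKM in ANG II 1 to 4. It differed far less between the groups than its relative Postn, with a 1.96-fold difference of means (35.1 ± 3.43 against 17.9 ± 1.47 FPKM, SD, n = 4 each; log2 fold change 0.93, SE 0.08). Unlike at Postn, ANG II 2 was here the lowest of its group and ANG II 3 the second highest.

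Among the other secreted proteins, Cthrc1 (ENSMUSG00000054196, chr15:39076932-39087121, plus strand) codes for collagen triple helix repeat containing 1, a marker of the matrix-producing fibroblasts of injured tissue. The control libraries 1 to 4 held 3, 2, 1 and 3 fragments (0.259, 0.171, 0.0753 and 0.245 FPKM), whereas the ANG II libraries 1 to 4 held 425, 538, 304 and 392 fragments (35, 42.1, 25.1 and 30.6 FPKM). Cthrc1 was thus at the edge of detection in each control library, and in ANG II it was at a level close to that of Meox1. Per fragment sequenced, the ratio of ANG II to control was 181 (exact 95% interval 94.9 to 396, covering counting error only). Its log2 fold change, 4.83 (SE 0.15), was the highest of the genes tested, and its size depends on the pseudocount of 1.

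Cilp (ENSMUSG00000042254, chr9:65265180-65280605, plus strand) codes for cartilage intermediate layer protein, which binds TGF-beta in the matrix. It was at 6.45, 7.24, 4.01 and 11.1 FPKM in control 1 to 4 and at 119, 126, 60.9 and 131 FPKM in ANG II 1 to 4. ANG II 3 stood apart from the other ANG II libraries and yet lay 5.47-fold above control 4, the highest control library. The mean was 15.1-fold higher in ANG II (109 ± 32.4 against 7.21 ± 2.96 FPKM, SD, n = 4 each; log2 fold change 3.75, SE 0.29, and 4.01 without ANG II 3).

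Fap (ENSMUSG00000000392, chr2:62500943-62574075, minus strand) codes for fibroblast activation protein, a serine protease of the cell surface that is used as a target for imaging of activated fibroblasts. It was at 3.1, 4.13, 3.48 and 3.66 FPKM in control 1 to 4 and at 8.17, 7.03, 6.39 and 6.95 FPKM in ANG II 1 to 4, with little spread in either group. Its log2 fold change was close to that of Tgfbi (0.82, SE 0.10; 7.13 ± 0.75 against 3.59 ± 0.43 FPKM, SD, n = 4 each), and the ratio of means was 1.99, and these were the 2 genes with a log2 fold change below 1.

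Meox1 (ENSMUSG00000001493, chr11:101877510-101894374, minus strand) codes for a homeobox transcription factor and is the only one of the 10 genes whose product is neither secreted nor held at the cell surface. It was at 10.2, 7.96, 7.1 and 8.57 FPKM in control 1 to 4 and at 38.8, 39.5, 26.4 and 35.3 FPKM in ANG II 1 to 4. ANG II 3 was again the lowest of its group. The mean was 4.14-fold higher in ANG II (35 ± 6.03 against 8.46 ± 1.32 FPKM, SD, n = 4 each; log2 fold change 1.92, SE 0.14).

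The order of the levels changed between the groups. In control, the order by mean FPKM was Sparc, Postn, Tgfbi, Fn1, Meox1, Cilp, Fap, Spp1, Tnc and Cthrc1, and the ranges of the neighbors overlapped for Tgfbi and Fn1, Meox1 and Cilp, Cilp and Fap, and Spp1 and Tnc. Tgfbi was nonetheless above Fn1, and Cilp above Fap, in each of the 4 control libraries. Meox1 was above Cilp, and Spp1 above Tnc, in 3 of them. In ANG II, the order was Sparc, Postn, Fn1, Cilp, Tgfbi, Meox1, Cthrc1, Spp1, Tnc and Fap, and the ranges of the neighbors overlapped from Tgfbi down to Tnc, so that the places of Tgfbi, Meox1, Cthrc1 and Spp1 next to each other do not exceed their spread. Spp1 and Tnc overlapped in their ranges, yet Spp1 was above Tnc in each of the 4 ANG II libraries. Cthrc1 moved from the last place to the seventh, and Fap from the seventh to the last. These levels per length depend on the transcript lengths that the authors used for each gene.

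The 10 genes together took 0.0587 to 0.0783% of the fragments in the control libraries and 0.402 to 0.525% in the ANG II libraries. Sparc supplied 79.4 ± 3.37% (SD, n = 4) of their summed FPKM in control but 52.1 ± 3.07% (SD, n = 4) in ANG II. Postn supplied 7.75 ± 1.65% in control and 28.1 ± 2.84% in ANG II, and Fn1 supplied 3.67 ± 0.36% and 8.72 ± 0.29%. Postn, Fn1, Cilp, Cthrc1, Tnc and Spp1 thus had a larger share of the sum in ANG II, and Sparc, Tgfbi, Meox1 and Fap a smaller one.

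**Figure D2:**
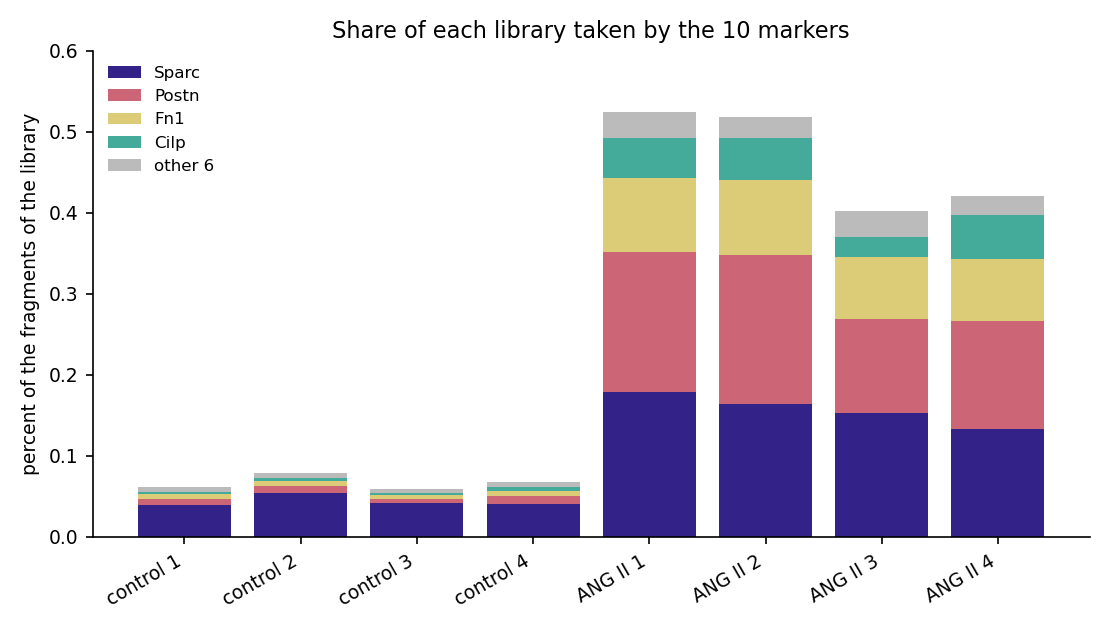
Percent of the fragments of each library that fell in the 10 markers, stacked by gene (Sparc, Postn, Fn1, Cilp and the other 6 together). The control libraries sit between 0.0587 and 0.0783% and are mostly Sparc, and the ANG II libraries sit between 0.402 and 0.525%, with ANG II 1 and 2 above ANG II 3 and 4.

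Within the ANG II group, the libraries were not ordered alike at every gene. ANG II 1 was above the group mean at all 10 genes. ANG II 3 was the lowest library at 6 genes (Postn, Cthrc1, Cilp, Meox1, Fap and Fn1) and the highest at 2 (Tnc and Spp1), whereas ANG II 4 was the lowest at Tnc, Spp1 and Sparc. Among the 13234 tested genes with an ANG II mean of at least 1 FPKM, ANG II 3 was the lowest library at 31.8% and the highest at 23.6%. ANG II 1 was the highest at 26.7% of these genes and the lowest at 17.5%, and ANG II 4 was the lowest at 21.3%. The share of genes with ANG II 1 above the group mean was not counted.

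Postn, Cthrc1, Meox1 and Fn1 shared 1 order of the libraries from high to low (ANG II 2, 1, 4, 3), which 5.07% of those 13234 genes had. Tnc and Spp1 shared another (ANG II 3, 1, 2, 4), which 4.38% had. The first order was also that of 6 of 20 other markers of activated fibroblasts and 5 of 18 collagens and collagen maturation genes. ANG II 3 was the lowest library at 14 of these 20 and 11 of these 18. The second was that of 2 of 14 endothelial markers, 2 of 13 matrix receptors and 2 of 9 epicardial and mesothelial markers. Either order was found at 0 of 18 resting fibroblast markers. The summed FPKM of the 21 macrophage markers was 944, 775, 1075 and 831 in ANG II 1 to 4, highest in ANG II 3, as were Tnc and Spp1, and lowest in ANG II 2. Of these 21 markers singly, 15 were highest in ANG II 3, 9 were lowest in ANG II 4 and 11 in ANG II 2, and 6 had the same order of the libraries as Tnc and Spp1. The summed FPKM of the 18 resting fibroblast markers was 1861, 1591, 1960 and 2015 in ANG II 1 to 4. The share of mitochondrially encoded genes was 21.8% of the fragments in ANG II 3 and 19.2 to 19.5% in the other ANG II libraries. The part of these values in the differences among the ANG II libraries was not tested.

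**Figure D3:**
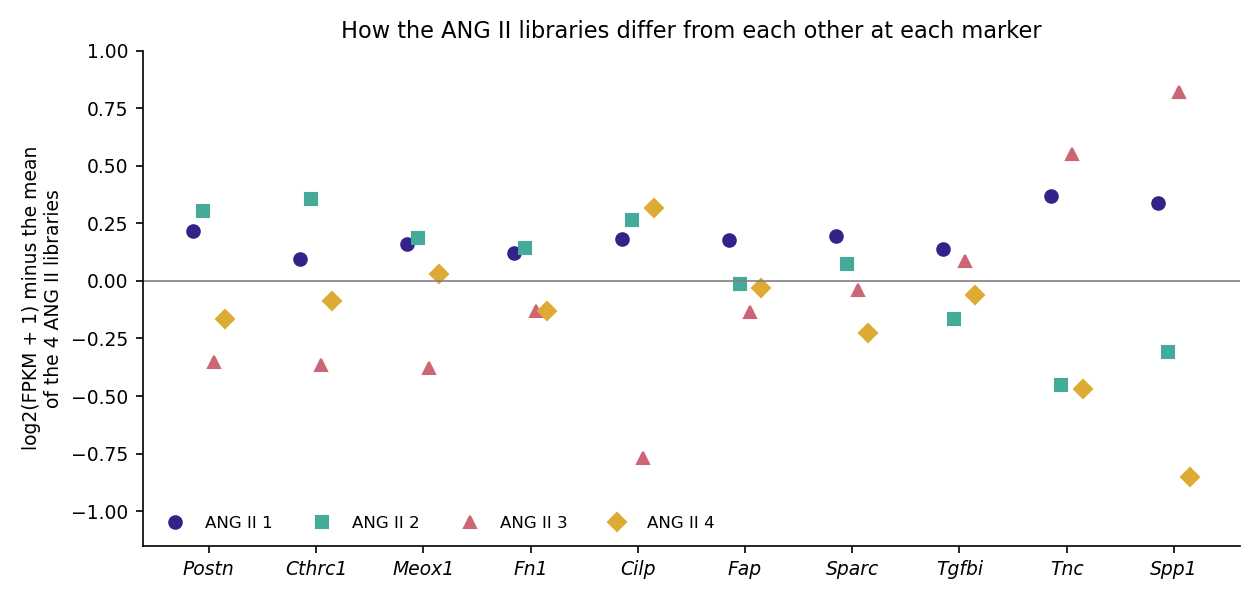
Log2(FPKM + 1) of each ANG II library minus the mean of the 4 ANG II libraries, for each marker. ANG II 3 (triangles) lies below 0 at Postn, Cthrc1, Meox1, Fn1, Cilp, Fap and Sparc and above 0 at Tgfbi, Tnc and Spp1, and ANG II 1 (circles) lies above 0 at every marker.

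In control, the libraries differed as well. Control 3 was below the group mean at all 10 genes and the lowest at 7, where it was below the mean at 57.3% and the lowest at 27.7% of the 18315 tested genes with a control mean of at least 0.1 FPKM. It was also the lowest for the summed resting fibroblast markers, whose control sums ran from 1292 to 1650 FPKM. Divided by the summed resting fibroblast markers of the same library, Postn was at 1.73 to 2.53% in control and 26.2 to 50.8% in ANG II. This sum rests largely on Gsn, which made up 52.1 to 53.5% of it in control and 27.4 to 34.6% in ANG II. Without Gsn, an alternative chosen after the data had been seen, the sum of the other 17 markers was 619 to 772 FPKM in control and 1155 to 1319 in ANG II. Divided by that sum, the means were 11.6-fold (Postn), 8.79-fold (Cilp), 7.53-fold (Fn1), 17-fold (Tnc), 14.9-fold (Spp1), 2.37-fold (Meox1) and 2.05-fold (Sparc) higher in ANG II, and the groups did not overlap at these genes or at Cthrc1. Of all 19364 genes tested, 11.1% had every ANG II library above every control library after division by the sum with Gsn and 4.11% after division by the sum without it, and nothing is read from these shares, since the 10 genes were selected on this contrast.

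Fap and Tgfbi depended on the divisor. Divided by the sum with Gsn, their means were 1.65-fold and 1.63-fold higher in ANG II with no overlap of the groups. Without Gsn they were 1.13-fold and 1.12-fold higher, and the groups overlapped at both genes. Divided by the resting fibroblast marker Pdgfra alone they were 1.24-fold and 1.22-fold higher, again with overlap, and divided by Dcn alone, 1.18-fold with overlap (Fap) and 1.17-fold without (Tgfbi).

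Over all 8 libraries, the genes most like each marker were found by the root mean square difference of log2(FPKM + 1) after subtracting the control mean, among 12132 genes. The nearest to Postn was Lox, which cross-links collagen (0.28) and had the same order of the ANG II libraries as Postn. Lox was also among the nearest to Cthrc1, at a larger distance (0.63). Cilp was nearest to Ltbp2, a latent TGF-beta-binding protein (0.13), and Thbs4, a thrombospondin (0.21).

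The nearest to Fn1 were Nppa, the atrial natriuretic peptide gene of stressed cardiomyocytes (0.22), and Lox (0.3), and the nearest to Tnc were Sprr1a (0.23) and the collagen gene Col1a1 (0.36). Spp1 was nearest to Timp1, an inhibitor of matrix metalloproteinases (0.44), and Serpina3n, a secreted protease inhibitor (0.44). Meox1 was nearest to Tmem119 (0.12) and Fndc1 (0.13), and Sparc to Fcrls (0.12) and Cercam (0.13).

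Fap and Tgfbi, the genes with the smallest log2 fold changes of the 10, had the closest neighbors, and the cause was not tested. Fap was nearest to Lamc1, a laminin chain (0.04), and Tcaf1 (0.05), and Tgfbi to Tpm3, a tropomyosin (0.06), and B3galnt1 (0.06). Among the 45 pairs of the 10 genes themselves, the nearest were Fap and Tgfbi (0.17) and Meox1 and Sparc (0.26), and Cthrc1 and Fap were the farthest apart (2.84). Postn and Cthrc1 were 0.42 apart.

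For comparison, genes of related pathways were counted in the same fit, with adjusted p-values from limma with Benjamini-Hochberg adjustment over all genes tested. Of 18 collagens and collagen maturation genes, 16 rose and 0 fell (median log2 fold change 2.29, against 0.15 over all genes tested). The largest changes were those of Lox (log2 fold change 3.98, SE 0.17, adjusted p = 1.76e-06), Col1a1 (3.25, SE 0.16, adjusted p = 3.1e-06) and Col8a1 (3.19, SE 0.18, adjusted p = 4.7e-06). Col5a3 (0.46) and the collagen chaperone gene Serpinh1 (0.4) were not called.

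Of 13 receptors that bind these matrix proteins, 8 rose and 1 fell (median log2 fold change 0.7). Itgb3, an integrin chain of Arg-Gly-Asp receptors, had a mean of 0.757 FPKM (SD 0.114) in control and of 3.13 FPKM (SD 0.37) in ANG II (n = 4 each; log2 fold change 1.23, limma adjusted p = 4.27e-05). The osteopontin and hyaluronan receptor Cd44 (1.09, adjusted p = 0.000127) and Itgb5 (1.07, adjusted p = 0.000232) rose as well. The gene that fell was Itgb6, named after its values were seen, with a mean of 8.94 FPKM (SD 1.57) in control and of 5.01 FPKM (SD 0.87) in ANG II (n = 4 each; log2 fold change -0.72, limma adjusted p = 0.003). Itga9, Sdc4 and Itga8 were not called, with log2 fold changes of 0.13, 0.14 and 0.3.

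Of 21 genes of the TGF-beta pathway, 14 rose and 0 fell (median log2 fold change 0.88). Among the largest changes were those of Ltbp2 (3.75, SE 0.29, adjusted p = 2.24e-05) and Thbs1, which can activate latent TGF-beta (2.21, SE 0.25, adjusted p = 0.000156), by limma with Benjamini-Hochberg adjustment. Ltbp4, Smad4 and Ski were not called (0.46, 0.3 and 0.33).

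Of 20 other markers of activated fibroblasts, 16 rose and 1 fell (median log2 fold change 2.35). Timp1 (3.99), Thbs4 (3.98) and the Wnt modulator Sfrp2 (2.92) changed most, with limma adjusted p-values from 7.96e-06 to 6.8e-05, while Ddr2 and Chad were not called (0.42 and 0.05). Cilp2, the paralog of Cilp, was a low gene (0.35 against 0.864 FPKM) that was not called at 0.48, but was called at 1.85 with voom on the recovered fragments and at 0.56 to 0.57 without control 2, control 4 or ANG II 3. The gene that fell was Lrrc15, named after its values were seen, which marks activated fibroblasts in tumors and had a mean of 5.76 FPKM (SD 1.37) in control and of 1.88 FPKM (SD 0.1) in ANG II (n = 4 each; log2 fold change -1.21, limma adjusted p = 0.000174).

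Of 16 transcription factors of fibroblast fate, Meox2 included and Meox1 not, 15 passed the filter on low values and 8 rose (median log2 fold change 0.52). The number called was 5 with quantile normalization and 6 with median-of-ratios scaling. Runx1 (1.6, adjusted p = 2.73e-05), Runx2 (1.21, adjusted p = 7.91e-05) and Snai1 (1.16, adjusted p = 0.000227) changed most by limma with Benjamini-Hochberg adjustment, and Tead1, Srf and Prrx1 were not called (-0.12, -0.12 and 0.22).

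**Figure D4:**
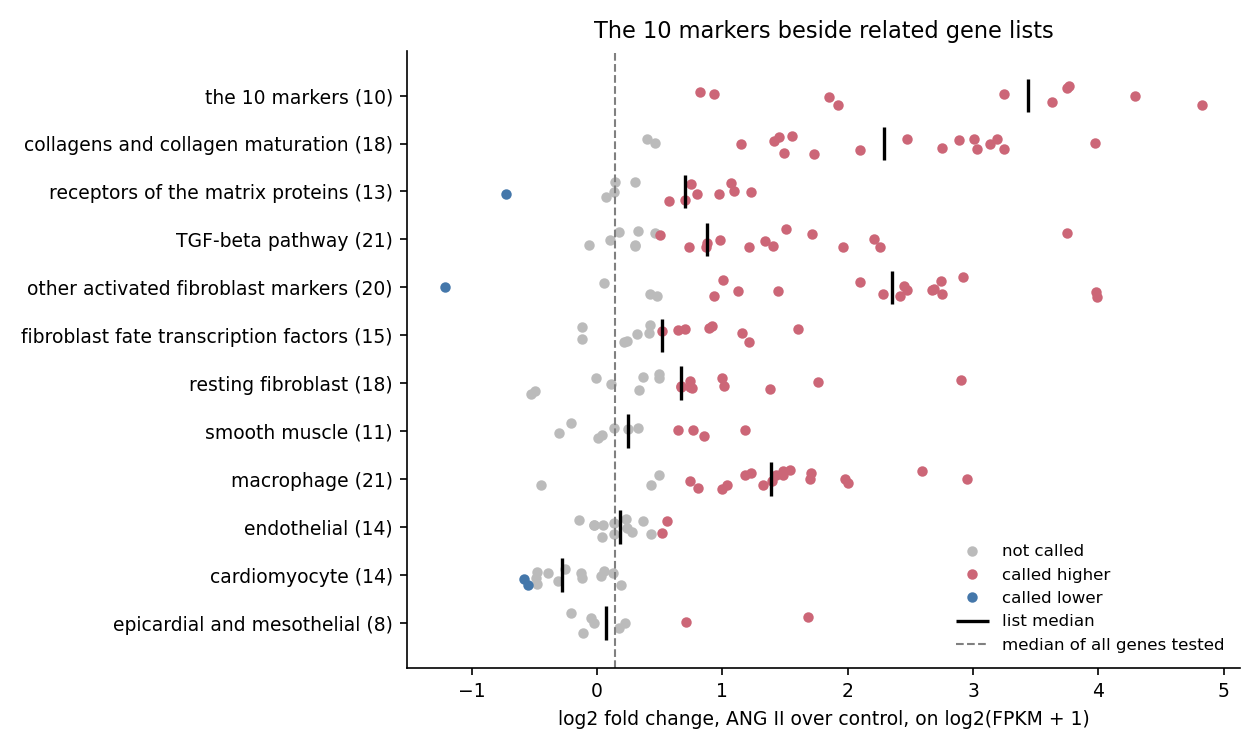
Log2 fold change (ANG II over control, on log2(FPKM + 1)) of every tested gene in each list, colored by whether it was called higher (red), lower (blue) or not called (gray), with the list median as a black line, the median of all genes tested as a dashed line and the number tested in parentheses. The 10 markers, which were chosen on this contrast, have a median of 3.44, the other activated fibroblast markers 2.35, the collagens 2.29 and the macrophage markers 1.39.

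Markers of the cell types in the ventricle were counted in the same way. Of 18 resting fibroblast markers, 10 rose and 0 fell (median log2 fold change 0.67; sums of 1292 to 1650 FPKM in control and 1591 to 2015 in ANG II, which overlap). Mfap4 (2.9), Lum (1.76) and Thy1 (1.38) changed most (limma adjusted p-values from 1.38e-05 to 0.00066), and Gsn, the most abundant of the list, had a mean of 819 FPKM (SD 97.5) in control and of 587 FPKM (SD 122) in ANG II (n = 4 each; -0.5, not called but next to the threshold, and called lower in 6 of 18 alternatives). Of 21 macrophage markers, 18 rose and 0 fell (median 1.39; sums of 329 to 412 FPKM in control and 775 to 1075 in ANG II), among them Lgals3 (2.95), Ms4a7 (2.59) and Ccr2 (2).

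Of 11 smooth muscle markers, 4 rose (3 with the replicate block; median 0.25; sums of 302 to 376 and 358 to 408 FPKM). Acta2, the smooth muscle actin gene that myofibroblasts also express, had a mean of 108 FPKM (SD 25.9) in control and of 92.6 FPKM (SD 15.2) in ANG II (n = 4 each; -0.2, limma adjusted p = 0.385). Tagln, a defining marker of the list, was listed at 0 to 0.0677 FPKM in control and 0.0648 to 0.389 FPKM in ANG II, but 62.4% of the bases of its exons are covered by a gene of the opposite strand, Gm48529, and how fragments there were assigned is not given in the sources used here, so these values are not read as its level. Without Tagln, 4 of the other 10 smooth muscle markers rose (median 0.235).

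Of 14 endothelial markers, 2 rose (14.3%, where 14.0% of all genes tested were called higher; Pecam1 and Vwf; median 0.18; sums of 789 to 844 and 915 to 1055 FPKM), and neither call held under other scalings of the libraries. Of 14 cardiomyocyte markers, 2 fell (Myh6 and Tnni3; median -0.28; sums of 56720 to 57681 and 44008 to 47090 FPKM), and neither of these calls held under quantile normalization. Cardiomyocyte calls were 7 with median-of-ratios scaling, and 4 without mitochondrially encoded and the 10 most abundant genes. Of 9 epicardial and mesothelial markers, 8 were tested and 2 rose (Aldh1a2 and Tbx18; median 0.07; sums of 10.9 to 13.5 and 18.8 to 29.8 FPKM). The part of other cell types in the values of the 10 genes was not tested.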

How the data were processed

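RNA was enriched on oligo(dT) beads and sequenced as paired 150-base Illumina reads. The authors deposited 1 table of FPKM values for these 8 libraries (1 column each, no pooling). The study describes more libraries per group and a further deposit, which are not analysed here. The submitters' processing notes name Bowtie2, HISAT and RSEM, and the roles, genome build, annotation and use of strand are not given in the sources used here. One protocol label names another cell source than the left ventricle, and the 14 cardiomyocyte markers summed to 44008 to 57681 FPKM in the 8 libraries. Fragments were recovered from the steps of the FPKM values with transcript lengths of GENCODE M21, which held 55141 of 55679 gene IDs. Of values under 60 fragments, 98.1 to 98.5% were whole within 0.05 fragments, and the libraries held 14455654 to 16564828 fragments. Mitochondrially encoded genes took 26.3 to 27% of them in control and 19.2 to 21.8% in ANG II. Intervals cover counting error only.

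Genes whose mean reached 0.1 FPKM (19364) were fitted by limma 3.58.1 (R 4.3.3; eBayes with trend, two-sided) on log2(FPKM + 1) over all 8 libraries, with Benjamini-Hochberg adjustment. Genes with an adjusted p under 0.05 and an absolute log2 fold change above 0.5 were called, thresholds that the study names without the base of the logarithm. Fold changes on this scale understate the change of low genes. The p-values measure the spread between these libraries. The scripts were tested on simulated data. The 10 genes and all gene lists were chosen with earlier results of these data known. Named were the 10 genes, in each list up to 3 called genes with the largest change and up to 3 not called with the highest mean, and the 2 nearest genes of each marker. Some genes that this rule picks are left out of the text, and the counts keep them. Of 50-base words, 0 to 2.51% were shared with other genes for 9 of the markers and 11.6% for Spp1. Exons of Tnc (2.26%) and Fn1 (2.5%) are partly covered by genes of the opposite strand. Other steps were run in Python 3.11.15 with pandas 2.3.3, numpy 2.4.6, scipy 1.17.1 and matplotlib 3.10.9.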

Additional observations from a re-analysis of the deposited data

Results flagged for a closer look

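Among the 4 ANG II libraries, Cilp was at 60.9 FPKM in ANG II 3, and the nearest of the other 3 was at 119 FPKM. This gap was 0.831 of the range of the group, just past the 95% critical value of Dixon's test for 4 samples. It was the only value past it among 20 groups tested (10 genes in 2 groups), and chance alone flags about 1 in 20 groups. Without ANG II 3, the log2 fold change of Cilp was 4.01 in place of 3.75.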

How the results depend on the processing

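The 10 markers were called higher under each of the 18 alternatives but 1: with a log2 fold change above 1 required, 8 were called and Fap and Tgfbi were not. Leaving out each library in turn kept 10 called. Across the alternatives the log2 fold change ran from 0.51 (quantile normalization) to 0.99 for Fap and from 4.68 to 7.27 for Cthrc1, whose highest value came from voom on the recovered fragments, as did those of Tnc (4.83) and Spp1 (4.97); voom called 3598 genes higher and 389 lower. The split of all calls moved with the scaling: 90.8% of calls were higher as deposited (2708 higher and 273 lower), 67.5% with median-of-ratios scaling (1671 and 806), 58.9% with quantile normalization (1413 and 986) and 78.7% without mitochondrially encoded and the 10 most abundant genes (1976 and 536).

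Requiring a log2 fold change above 1 left 795 of 2981 called genes, 3 of 9 receptors, 9 of 14 TGF-beta pathway genes, 3 of 8 transcription factors, 5 of 10 resting fibroblast, 1 of 4 smooth muscle, 0 of 2 endothelial, 0 of 2 cardiomyocyte and 1 of 2 epicardial markers. Quantile normalization left 5 transcription factors, 0 endothelial and 1 epicardial marker, and 2 cardiomyocyte calls that were not Myh6 and Tnni3; median-of-ratios scaling gave 0 endothelial and 7 cardiomyocyte calls, and leaving out mitochondrially encoded and top 10 genes gave 0 and 4. The cause was not tested. With 1 library left out, endothelial calls ran from 1 (without ANG II 1, 2 or 3) to 3 and cardiomyocyte calls from 2 to 4 (without ANG II 3). Of 62 named list genes, 43 kept their call in every alternative. Gsn, at -0.5 next to the threshold, was called lower under all 3 other scalings and without control 3, ANG II 3 or ANG II 4 (6 of 18 alternatives). Smooth muscle calls were 3 rather than 4 with no filter, quantile normalization, without mitochondrially encoded and top 10 genes, with the replicate block and in 5 of 8 fits with 1 library left out.

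Samples that share a replicate number showed no clear common deviation (correlations from -0.032 to 0.062, and 1 of 4 numbers correlated best with itself). With 4 correlations, this check cannot show that they share only a number. With the replicate block, 2968 genes were called in place of 2981 (2700 higher and 268 lower), and 10 markers; of the lists, the smooth muscle count moved from 4 to 3. With 1 to 3 fragments per control library, the size of the Cthrc1 difference is limited by depth, as is that of Spp1 in control 3.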
